A study of Mus musculus with 8 samples.

Results

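The 10 genes described here encode transcription factors that hold the naive T cell program: Lef1, Tcf7, Satb1, Bach2, Ets1, Bcl11b, Myb, Ikzf1, Tcf12 and Gata3. They were taken by symbol from a table of 41730 gene rows, where all 10 had a row, and all 10 were among the 10037 genes with enough counts to be tested. The list was drawn up to ask whether a lower level of Lef1, seen earlier in these same libraries, was shared by Tcf7 and the other factors. Lef1 was thus selected on its measured counts in RGX-104 against DMSO, and its values are given as a description that supports nothing by itself.

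Naive CD8+ T cells of the mouse, isolated with a magnetic kit, spent 24 h in culture in the presence of the solvent DMSO or of RGX-104 at 2 µM. RGX-104 activates the liver X receptors (LXR), nuclear receptors that sense oxidised cholesterol and switch on genes of sterol export and fatty acid synthesis. Messenger RNA was read from its 3′ end in 4 DMSO libraries (replicates 1 to 4) and 4 RGX-104 libraries (replicates 5 to 8), and no other allele, agent or stimulus is named in the labels. The sources used here do not state strain, age or sex. They also do not tie the libraries to animals or cultures, so the p-values rest on a spread among libraries that may be technical.

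Naive T cells stay quiescent, recirculate through lymph nodes and keep open the choice of later fates, and a small set of DNA-binding proteins maintains this state. TCF1, the product of Tcf7, and LEF1 are related proteins with a high mobility group (HMG) domain that bind the same short DNA element, act with β-catenin or with corepressors of the Groucho/TLE family, and guard CD8 lineage identity. SATB1, BCL11B and Ikaros (Ikzf1) shape chromatin, BACH2 represses effector genes, ETS1, MYB and GATA3 drive T cell genes, and HEB (Tcf12) is an E protein that pairs with other helix-loop-helix factors. In bulk RNA, fewer cells that express a gene and less RNA per cell cannot be told apart.

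Lef1 lies at chromosome 3, 131110297 to 131224357 on the plus strand of GRCm38.p6, and the RefSeq promoter table holds 4 start sites for it. The 250 bases before the first start and before the last one, which lies within an intron at 131156294, are shown because Lef1 was the member whose groups did not overlap and because the agonist acts on DNA-binding receptors. Capitals mark TCAAAG, the core of the TCF/LEF element, on either strand; neither window holds the hexamer AGGTCA, to which LXR and its partners bind. Both are on the plus strand, 5′ to 3′, from RefSeq on GRCm38.p6.
Lef1 first start, chr3:131110047-131110296: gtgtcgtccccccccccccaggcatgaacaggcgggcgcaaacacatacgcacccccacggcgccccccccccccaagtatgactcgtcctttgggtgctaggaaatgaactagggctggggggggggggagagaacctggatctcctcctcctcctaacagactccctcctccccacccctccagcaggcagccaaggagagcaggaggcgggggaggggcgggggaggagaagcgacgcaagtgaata
Lef1 last start, chr3:131156044-131156293: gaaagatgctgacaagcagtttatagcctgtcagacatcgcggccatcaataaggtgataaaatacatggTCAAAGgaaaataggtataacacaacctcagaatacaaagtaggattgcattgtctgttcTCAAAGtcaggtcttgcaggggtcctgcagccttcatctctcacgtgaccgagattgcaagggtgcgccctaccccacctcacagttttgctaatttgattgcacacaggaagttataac

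The window before the first start is 66.4% G and C, and that before the last start 44.8%. The latter window holds TCAAAG with its first base 180 and 120 bases before the start. RefSeq windows of 250 bases were found for 9 of the 10 factors, 20 windows in all, some of which overlap within a gene. TCAAAG was present on either strand in 3 of the 20 (Lef1, Bach2 and Bcl11b), against 13.8% of 32851 windows of the genome. The hexamer AGGTCA was present in 3 of the 20 (Satb1, Tcf12 and Tcf7), against 14.0% of all windows, and the LXR direct repeat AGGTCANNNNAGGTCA, which contains that hexamer, in 0 of the 20, against 0.0152%. A match is a string of letters in a window and not a measured binding site, and 3′ end counts do not show which start a transcript came from.

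Libraries held 16308700 to 24353800 counts in DMSO and 16196200 to 28287400 in RGX-104, each total rounded to 6 significant digits. Genes with at least 1 count numbered 10047, 9772, 10194 and 10908 in DMSO replicates 1 to 4 and 10442 to 10990 in RGX-104, so DMSO replicates 1 to 3 had the fewest. Of 1215 genes averaging 5 to 10 CPM (counts scaled to a common library total), those without any count made up 18.9% to 23.3% in DMSO replicates 1 to 3, 8.31% in DMSO replicate 4 and 7.08% to 13.3% in RGX-104. The CD8 T cell label was checked on 14 identity genes, of which 12 had counts, among them Cd8a and Cd8b1; Cd2 and Cd28 had no count in any library. Their summed level was 4560 to 4954 CPM under DMSO and 4717 to 5212 CPM in RGX-104. The sum does not show differences of single genes. Of the 12 tested, 1 was higher and 1 lower at an unadjusted edgeR p under 0.05, against 3.81% of all tested genes in either direction. Groups did not overlap for 2, both with RGX-104 the higher, against 2.08% of all tested genes. None had an edgeR adjusted p under 0.05.

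The level of Lef1 was lower in every RGX-104 library than in any DMSO library, but it was not called (edgeR quasi-likelihood test, adjusted p = 0.348). None of the 9 other factors was called at an adjusted p under 0.05 in either direction. A difference with the size and error of that of Lef1 did not reach a call in edgeR. The lack of a call thus does not show that a factor was unchanged. Bcl11b stayed within a narrow interval around no change, and Tcf7, the close relative of Lef1, had nearly the same mean in both groups. Levels are CPM scaled by TMM factors (the trimmed mean of M-values, which corrects for differences in composition), and the CPM of different genes are not ranked against each other, because reads per transcript can differ between genes.

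Lef1, which encodes LEF1, stood at 373, 369, 345 and 347 CPM in DMSO replicates 1 to 4 and at 204, 263, 229 and 257 CPM in RGX-104 replicates 5 to 8. Every RGX-104 library lay below every DMSO library, and the gap between the groups, from 263 to 345 CPM, was wider than the spread within either. The mean was 358 ± 14.6 CPM under DMSO and 238 ± 27.5 CPM in RGX-104 (SD, n = 4 per group). On the log2 scale the fitted fold change was -0.59 ± 0.14 (SE), with a 95% interval from -0.88 to -0.30, which is a fold of 0.664 (0.543 to 0.813). Across the whole table Lef1 was not called (edgeR quasi-likelihood test, adjusted p = 0.348), while DESeq2 called it (adjusted p = 2.30e-04), at a log2 fold change of -0.61. Since Lef1 was picked for this difference, neither p is independent evidence of it.

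Shares over all tested genes are set beside these values. Because Lef1 was picked for its difference, the shares do not measure how unusual it was. Of 10037 tested genes, edgeR called 1 lower gene (0.00996%) and 10 higher genes (0.0996%), none of them a member. DESeq2 called 19 of 12160 genes lower (0.156%), with Lef1 the only member among them. Groups did not overlap, with RGX-104 the lower, for 1 of the 10 members (Lef1) and for 1.49% of all tested genes, or 2.13% of the 1835 genes with a mean of at least 100 CPM. In the opposite direction the count was 0 of 10 members, against 2.08% of all tested genes and 2.62% of those 1835. Among the 1835 genes, 13 (0.708%) had a log2 fold change at or below that of Lef1.

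**Figure D1:**
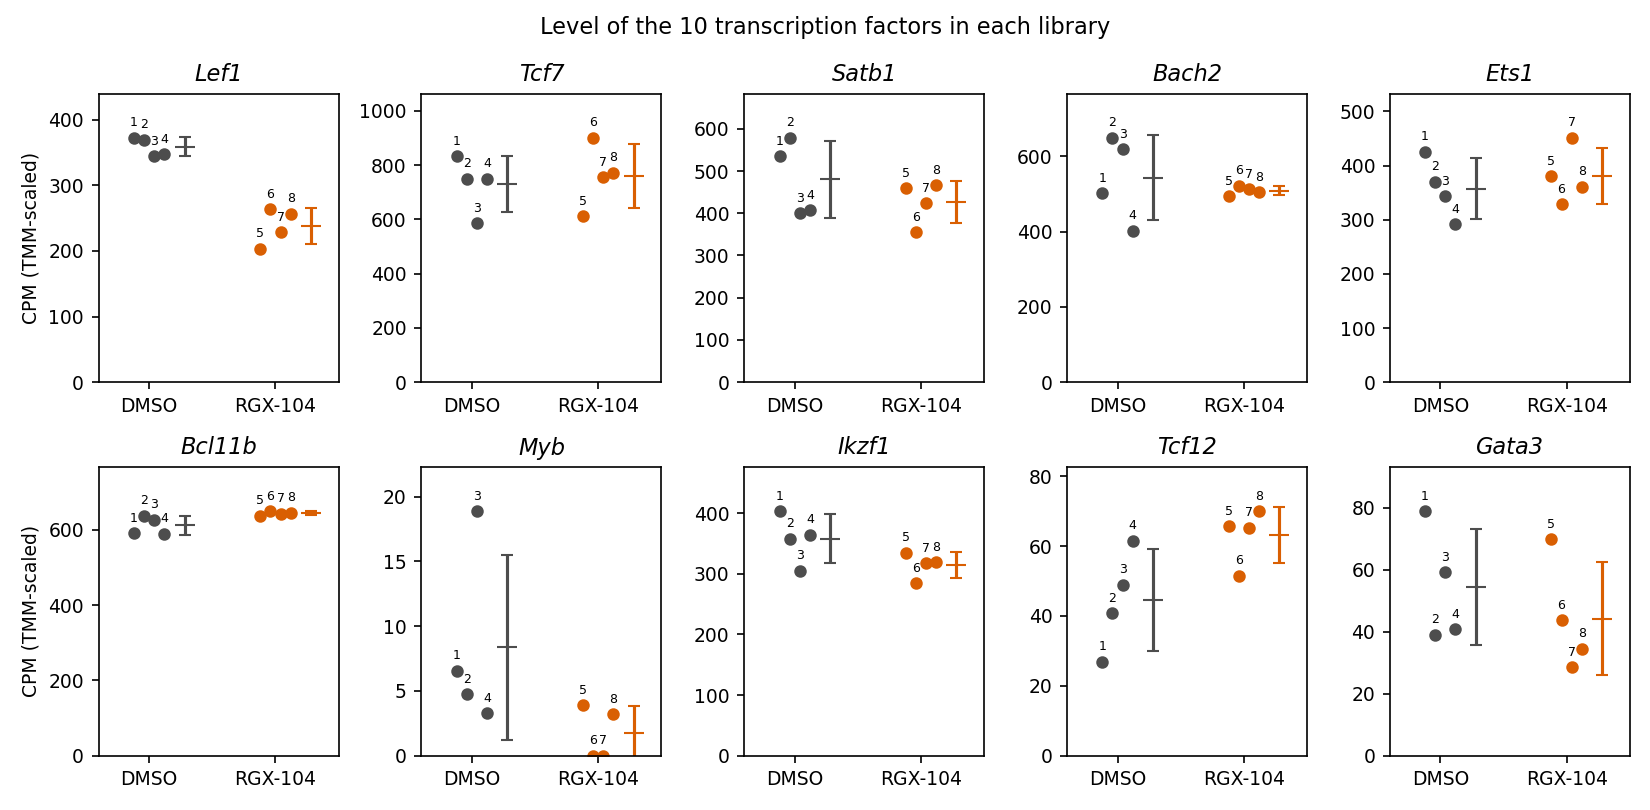
CPM (vertical axis, TMM-scaled, each panel from 0) of the 10 factors in the 4 DMSO libraries (grey) and the 4 RGX-104 libraries (orange); points are libraries with their replicate number, and bars are the mean ± SD, with the Myb bar in RGX-104 cut off at 0. The groups are apart for Lef1, 204 to 263 against 345 to 373 CPM, and overlap in the 9 other panels.

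Tcf7 encodes TCF1 and lies at chromosome 11, 52246527 to 52283383, on the minus strand. Its level was 834, 750, 586 and 750 CPM under DMSO and 612, 902, 755 and 772 CPM in RGX-104. The highest library was RGX-104 replicate 6 and the lowest DMSO replicate 3, and the groups overlapped widely. The means were 730 ± 104 and 760 ± 119 CPM, with a log2 fold change of 0.06 ± 0.13 and an interval from -0.22 to 0.34 (edgeR adjusted p = 1.00). The interval does not reach the -0.59 of Lef1, and it leaves room for a fold of 0.859 to 1.26. The sign of this value is not settled: it was -0.04 without DMSO replicate 3 and -0.04 without RGX-104 replicate 6. In RefSeq the 3′ end of Tcf7 overlaps that of Skp1, on the opposite strand, by 332 bases. Skp1, which encodes a ubiquitin ligase subunit, was at 79.7 ± 36.1 CPM under DMSO and 107 ± 15.8 CPM in RGX-104, and the strand setting of the counting is not given, so reads of the overlap may have been counted for either gene.

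Because Lef1 and Tcf7 are read in the same libraries, their ratio needs no scaling between libraries. There were 2.24, 2.03, 1.70 and 2.16 Tcf7 counts per Lef1 count in DMSO and 3.00, 3.42, 3.30 and 3.01 in RGX-104. The groups did not overlap, and the gap between them was wider than the range of either. The mean log2 ratio of Lef1 to Tcf7 was -1.01 ± 0.18 in DMSO and -1.67 ± 0.10 in RGX-104, a difference of -0.65. It carries no test, because Lef1 was chosen for its difference.

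The same ratio was taken against the other factors except Myb, which had libraries at 0. The groups did not overlap when Lef1 was divided by Tcf7, Bach2, Ets1, Bcl11b or Tcf12, with differences in the log2 ratio of -0.65, -0.53, -0.69, -0.67 and -1.15. They overlapped against Satb1 (-0.43), Ikzf1 (-0.41) and Gata3 (-0.27). The ratio to Bcl11b was the tightest in DMSO, at -0.77 ± 0.08, and stood at -1.44 ± 0.16 in RGX-104. These ratios share the Lef1 counts, so they are not separate observations of its level.

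**Figure D2:**
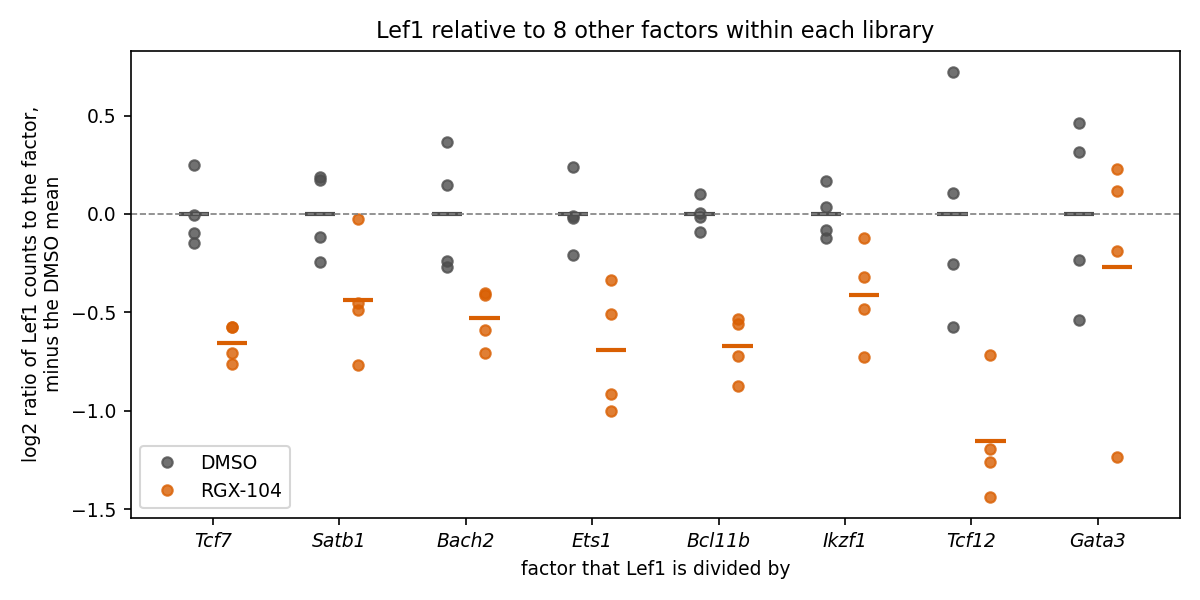
Log2 ratio of Lef1 counts to those of each of 8 other factors within a library, minus the mean of the DMSO libraries; points are libraries, short bars group means. The RGX-104 libraries lie below all DMSO libraries for 5 factors, and the mean difference is -0.65 for Tcf7 and -0.67 for Bcl11b.

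The factors that organise chromatin in T cells were Satb1, Bcl11b and Ikzf1, and none was called. Satb1 (chromosome 17, 51736187 to 51833290), a genome organiser of thymocytes, was at 536, 579, 400 and 407 CPM in DMSO and at 460, 355, 424 and 466 CPM in RGX-104. DMSO replicates 1 and 2 were above all others, and DMSO replicates 3 and 4 were within the RGX-104 range. The means were 481 ± 90.7 and 426 ± 50.6 CPM, with a log2 fold change of -0.17 ± 0.15 (interval -0.48 to 0.13, edgeR adjusted p = 1.00).

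Bcl11b (chromosome 12, 107910403 to 108004145) encodes a zinc finger protein needed for T cell commitment. Its libraries stood at 592, 638, 627 and 590 CPM in DMSO and at 637, 650, 643 and 645 CPM in RGX-104. DMSO replicate 2 lay just above RGX-104 replicate 5, the only crossing of the groups, and the RGX-104 libraries were close to each other. The means were 612 ± 24.4 and 644 ± 5.23 CPM, and the log2 fold change of 0.07 ± 0.11 had an interval from -0.15 to 0.29. Its SD within groups was 0.0415 on the log2 scale, and 0 of 176 tested genes with a mean within 1.5 times its own had a smaller one.

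Ikaros, the zinc finger protein encoded by Ikzf1 (chromosome 11, 11684962 to 11772930), had 403, 358, 305 and 364 CPM under DMSO and 335, 285, 318 and 319 CPM in RGX-104. All RGX-104 libraries lay below 3 of the DMSO libraries, and DMSO replicate 3 was among them. Its means were 358 ± 40.5 and 314 ± 20.9 CPM, and its log2 fold change of -0.19 ± 0.14 had an interval from -0.47 to 0.10 (edgeR adjusted p = 1.00). It kept its sign in all 17 alternative analyses, between -0.26 and -0.13.

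BACH2, a repressor that competes with AP-1 factors and restrains effector genes, is encoded by Bach2 (chromosome 4, 32238413 to 32586109). Its level was 502, 650, 619 and 402 CPM under DMSO and 495, 522, 514 and 505 CPM in RGX-104. The 4 RGX-104 libraries lay inside the range of the DMSO libraries, with an SD of 11.6 CPM against 114 CPM. The log2 fold change of -0.09 ± 0.14 had an interval from -0.39 to 0.20. Against DMSO replicate 4 alone, the lowest DMSO library for this gene, it was 0.34, and it was 0.16 when genes detected entered the fit as a covariate.

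ETS1, encoded by Ets1 (chromosome 9, 32636241 to 32757820), is a winged helix factor that acts with RUNX proteins at T cell genes. It stood at 426, 370, 343 and 291 CPM in DMSO and at 380, 329, 452 and 361 CPM in RGX-104. No library of either group stood apart, and the means of 357 ± 56.0 and 380 ± 52.0 CPM differed by less than the SD of either group. The log2 fold change of 0.09 ± 0.15 had an interval from -0.22 to 0.40 (edgeR adjusted p = 1.00), and the value was 0.39 against DMSO replicate 4 alone.

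Tcf12, Gata3 and Myb were measured with wider error. Tcf12 (chromosome 9, 71844252 to 72111893), which encodes the E protein HEB, was at 26.9, 40.9, 49.0 and 61.6 CPM in DMSO and at 65.6, 51.5, 65.3 and 70.0 CPM in RGX-104. DMSO replicates 1 to 3 lay below all RGX-104 libraries, and these are the libraries with the fewest genes detected; DMSO replicate 4 lay within the RGX-104 range. Its log2 fold change of 0.50 ± 0.32 had an interval from -0.16 to 1.17 (edgeR adjusted p = 1.00). It was the highest of the 10, and it was 0.04 against DMSO replicate 4 alone.

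Gata3 (chromosome 2, 9857078 to 9887953) encodes a zinc finger factor of T cell development and of T helper type II cells. It was at 78.9, 39.0, 59.1 and 40.7 CPM in DMSO and at 69.8, 43.7, 28.5 and 34.5 CPM in RGX-104. Each group held 1 library well above most of the others, DMSO replicate 1 and RGX-104 replicate 5, and the groups overlapped. The log2 fold change was -0.30 ± 0.36, with an interval from -1.06 to 0.46 that includes the value of Lef1, so a difference of that size was not detectable for this gene.

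MYB, encoded by Myb (chromosome 10, 21124930 to 21160984), sustains immature and stem-like lymphocytes. Its counts were 126, 88, 462 and 52 in DMSO and 110, 0, 0 and 54 in RGX-104, or 6.55, 4.74, 18.9 and 3.28 CPM against 3.89, 0, 0 and 3.20 CPM. DMSO replicate 3 carried most of the DMSO signal, and DMSO replicate 4 lay below RGX-104 replicate 5. The fitted log2 fold change of -2.23 ± 1.95 had an interval from -6.33 to 1.86, which gives no usable bound in either direction.

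**Figure D3:**
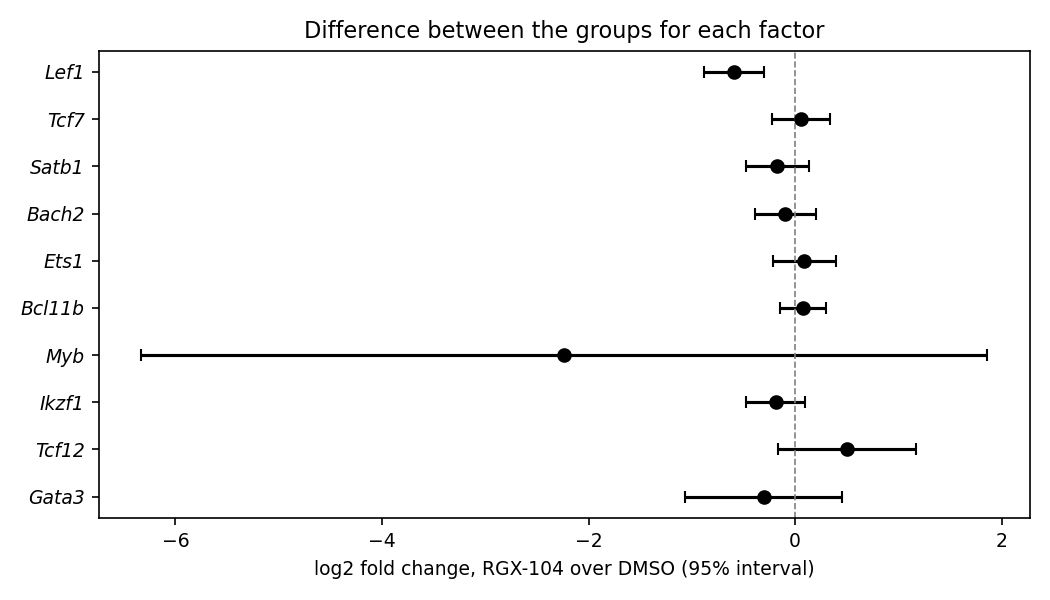
Log2 fold change of RGX-104 over DMSO (horizontal axis) for each factor, with its 95% interval from the edgeR fit on 4 libraries per group. The interval of Lef1, -0.88 to -0.30, lies below 0, and those of the 9 other factors include 0, that of Myb reaching from -6.33 to 1.86.

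Over the 10 factors the fold changes were below 0 for 6 and above 0 for 4, with a median of -0.13, beside 49.1% below 0 and a median of 0.01 over all 10037 tested genes. Leaving out any 1 library gave 6 to 7 factors below 0, but 3 were below 0 against DMSO replicate 4 alone, a single library, and 3 when genes detected was a covariate. Lef1 remained at -0.54 and -0.61 in these analyses, with edgeR adjusted p of 0.992 and 1.00. At an unadjusted p under 0.05 edgeR had 1 of the 10, Lef1, against 3.81% of all tested genes in either direction and 1.82% in the lower one, and limma-voom called 0 of the 10, with an adjusted p of 0.0987 for Lef1.

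The spread between libraries also differed between the groups. Among the 7 factors with a mean of at least 100 CPM, 5 varied more in DMSO than in RGX-104 on the log2 scale, as did 65.9% of the 1835 genes of that level. The exceptions were Lef1, with an SD of 0.06 in DMSO and 0.17 in RGX-104, and Tcf7, with 0.22 and 0.23. Over both groups, 9.14% of 580 genes with a mean within 1.5 times that of Lef1 had a smaller SD within groups.

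Genes whose profile over the 8 libraries was nearest to that of Lef1 were found by the root mean square difference of log2 CPM after centring each gene, among 1834 other genes with a mean of at least 100 CPM. The nearest were Ppp1r12a, a myosin phosphatase subunit (difference 0.136), Dapl1, a gene of naive T cells (0.143), B230219D22Rik (0.148), Ywhaz, a 14-3-3 protein (0.149), and Ppp1r14b, a phosphatase inhibitor (0.153). Their log2 fold changes lay between -0.56 (Ywhaz) and -0.34 (B230219D22Rik), and none was called (lowest edgeR adjusted p 0.872, for Ywhaz). Of the factors, Ikzf1 came in place 159 and Satb1 in place 364, while Tcf7 (574), Bcl11b (600) and Ets1 (1005) were further away. Nearness was computed on the same libraries that singled out Lef1, so it describes profiles only.

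**Figure D4:**
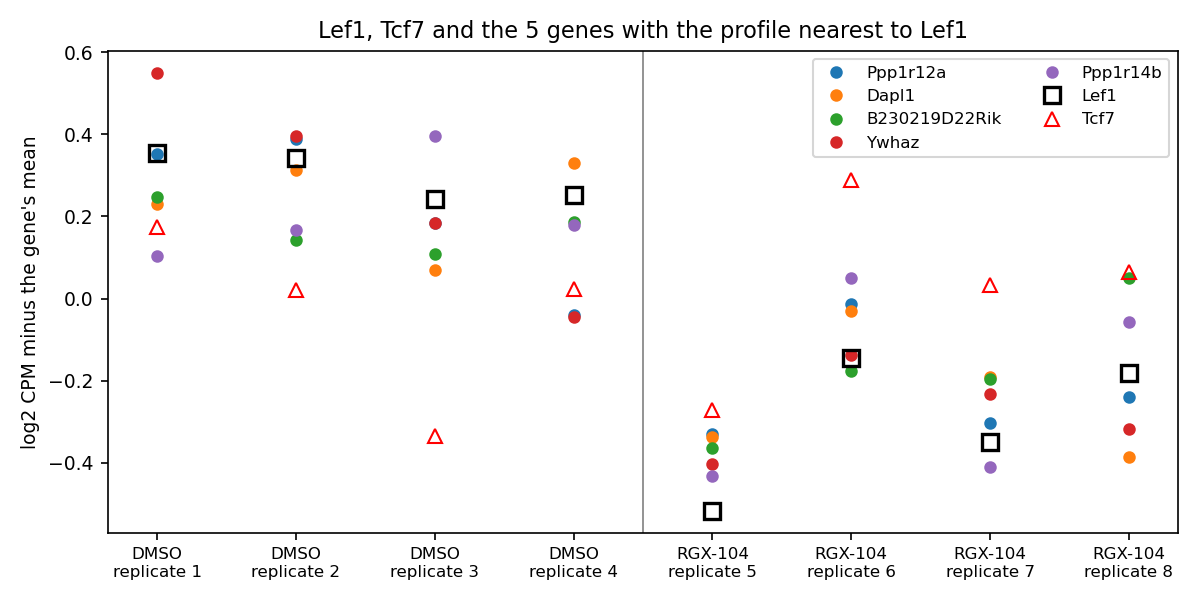
Log2 CPM minus the gene's own mean (vertical axis) in each of the 8 libraries for Lef1 (open squares), Tcf7 (triangles) and the 5 genes nearest to Lef1 (dots). The 5 genes lie at a root mean square difference of 0.136 to 0.153 from Lef1, and Tcf7 at 0.349.

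Genes around the factors were read from lists by role, and no gene of these lists was called by edgeR, DESeq2 or limma-voom. Of 25 close relatives of the factors 19 were tested, 9 above and 10 below 0, with a median of -0.02. At an unadjusted edgeR p under 0.05 there were 0, against 3.81% of all tested genes in either direction. Tcf7l2, an HMG relative of Lef1 and Tcf7, was at 16.8 ± 4.51 CPM under DMSO and 9.93 ± 8.25 CPM in RGX-104, and the ETS factors Elf1 and Fli1 were at 827 ± 126 and 748 ± 80.7 CPM and at 162 ± 24.9 and 149 ± 32.7 CPM. Bach1, the relative of Bach2, was at 21.6 ± 10.2 and 23.7 ± 11.7 CPM, Elk3, an ETS repressor, at 74.9 ± 14.6 and 90.1 ± 26.3 CPM, and the E protein Tcf3 at 52.1 ± 8.56 and 51.5 ± 21.3 CPM. Aiolos, the Ikaros relative encoded by Ikzf3, was at 44.7, 101, 57.2 and 44.7 CPM under DMSO and 45.0, 42.2, 38.1 and 23.0 CPM in RGX-104, with DMSO replicate 2 the highest and an overlap between the groups.

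Bcl11a, the relative of Bcl11b that B cells and plasmacytoid dendritic cells use, was at 9.46, 17.4, 6.21 and 10.96 CPM under DMSO and at 0.883, 2.52, 0 and 1.01 CPM in RGX-104. Its groups did not overlap, and it was the 1 of 19 tested relatives of which this held, against the background of 1.49%. It was not called (edgeR adjusted p = 1.00). Beside it, 10 B cell markers summed to 44.6 to 222 CPM under DMSO and 121 to 199.7 CPM in RGX-104, all 10 with counts in some library. The 6 plasmacytoid dendritic cell markers, which include Ccr9, a gene that naive CD8 T cells also use, summed to 372 to 472 and 289.8 to 423 CPM. The part of such cells in the Bcl11a level was not tested.

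The proteins that LEF1 and TCF1 work with gave no called gene among 14 tested of 18 listed, with 10 above and 4 below 0 and a median of 0.18. β-catenin (Ctnnb1) was at 155 ± 43.0 CPM under DMSO and 189 ± 28.2 CPM in RGX-104, and the corepressors Tle3, Tle4 and Tle5 were at 228 ± 42.5 and 260 ± 64.7, at 89.4 ± 30.9 and 108 ± 25.2, and at 199.8 ± 18.7 and 196 ± 24.3 CPM. Ctbp1, another corepressor, was at 118 ± 49.6 and 166 ± 28.3 CPM, and the deacetylase Hdac1 at 104 ± 30.9 and 76.7 ± 22.5 CPM. All these groups overlapped.

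Of 18 genes that control β-catenin 12 were tested, 6 above and 6 below 0, with a median of 0.04. Axin2, a feedback target of the β-catenin pathway, was at 45.2 ± 17.4 CPM under DMSO and 57.2 ± 15.9 CPM in RGX-104, and the Wnt co-receptor Lrp6 at 58.5 ± 35.7 and 37.3 ± 11.6 CPM. Gsk3a, a kinase that marks β-catenin for degradation, was at 156, 85.3, 145 and 139 CPM under DMSO and at 216, 169, 181 and 159 CPM in RGX-104. Its groups did not overlap, with a log2 fold change of 0.47 ± 0.20 (edgeR adjusted p = 1.00), and it was the 1 gene of the 12 at an unadjusted p under 0.05. Over all tested genes, groups did not overlap in that direction for 2.08%, and 3.81% had an unadjusted p under 0.05 in either direction.

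Among 23 partners of the other factors 21 were tested, 15 above and 6 below 0, with a median of 0.07. At an unadjusted edgeR p under 0.05, 2 were higher, Gatad2a and Ep300, against 3.81% of all tested genes in either direction. Runx1 and Cbfb, which form a complex that binds beside ETS1, were at 56.2 ± 23.6 and 60.6 ± 31.0 CPM and at 174 ± 25.1 and 178 ± 44.2 CPM. Id2 and Id3, inhibitors of E proteins such as HEB, were at 78.3 ± 28.3 and 84.3 ± 11.3 CPM and at 9.47 ± 7.62 and 4.22 ± 2.90 CPM. Gatad2a, a subunit of the NuRD complex that works with Ikaros and BCL11B, was at 119 ± 39.7 CPM under DMSO and 165 ± 16.02 CPM in RGX-104, and the acetyltransferase Ep300 at 66.8 ± 11.9 and 95.8 ± 18.7 CPM. Id1, another E protein inhibitor, was the 1 of the 21 whose groups did not overlap, against 1.49% of all tested genes in that direction, at 3.15 to 11.3 CPM under DMSO and 0 to 1.31 CPM in RGX-104. Runx3, a factor of CD8 T cells, was read in DMSO replicate 2 only, at 0.0539 CPM, the value of 1 count.

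Genes of naive cells downstream of these factors included several below 0, none of them called. All 13 listed genes were tested, 5 above and 8 below 0, with a median of -0.04. At an unadjusted edgeR p under 0.05, 3 were lower (Dapl1, S1pr1 and Il7r), against 1.82% of all tested genes. In Il7r, S1pr1, Actn1 and Dapl1 every RGX-104 library lay below every DMSO library, which held for 2.13% of tested genes with a mean of at least 100 CPM. In Cd8a, 1 of the 13, every RGX-104 library lay above every DMSO library, which held for 2.62% of tested genes with a mean of at least 100 CPM. The list was made with earlier results of these libraries known, so these counts are a description.

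Dapl1 was at 233, 247, 209 and 250 CPM under DMSO and at 157, 195, 174 and 152 CPM in RGX-104, and its log2 fold change of -0.47 ± 0.16 was not called (edgeR adjusted p = 1.00). Il7r, the interleukin 7 receptor that keeps naive cells alive, was at 450, 354, 388 and 370 CPM and at 296, 294, 294 and 352 CPM, where DMSO replicate 2 and RGX-104 replicate 8 nearly met. S1pr1, the receptor for leaving lymph nodes, was at 421, 587, 558 and 459 CPM and at 400, 373, 413 and 411 CPM. Ccr7, the lymph node chemokine receptor, was at 764 ± 153 and 837 ± 99.9 CPM and Slamf6, a marker of TCF1-positive cells, at 138 ± 14.3 and 169.6 ± 68.3 CPM, both with overlapping groups. The log2 fold changes of Il7r, S1pr1, Actn1 and Dapl1 were below 0 in all 17 alternative analyses of each gene.

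Of 16 listed genes that naive factors are known to hold down, 11 had a count and 6 were tested, 3 above and 3 below 0. Tbx21, Ifng, Klrg1 and Havcr2 had no count in any library. Cd2 and Cd28, which naive CD8 T cells express, were also at 0, so a count of 0 in this table does not show that a gene was silent. Cd4, which TCF1 and LEF1 silence in CD8 T cells, was at 2.08 ± 2.26 CPM under DMSO and 2.65 ± 0.950 CPM in RGX-104. Prdm1, a target of BACH2 that drives effector cells, had 5.50 CPM in DMSO replicate 2 and 0 in the other DMSO libraries, with a mean of 2.94 ± 3.73 CPM in RGX-104, and was too low to test. Icos, a costimulatory receptor, was at 11.8 ± 10.7 and 4.103 ± 2.90 CPM, and Gzmb, the granule protease granzyme B, at 9.76 ± 7.33 and 14.4 ± 1.91 CPM. Among genes of 5 to 10 CPM, 7.08% to 23.3% had no count in a library. The log2 fold changes of Icos and Gzmb had SEs of 1.49 and 0.94, so a moderate change of either gene was not detectable.

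**Figure D5:**
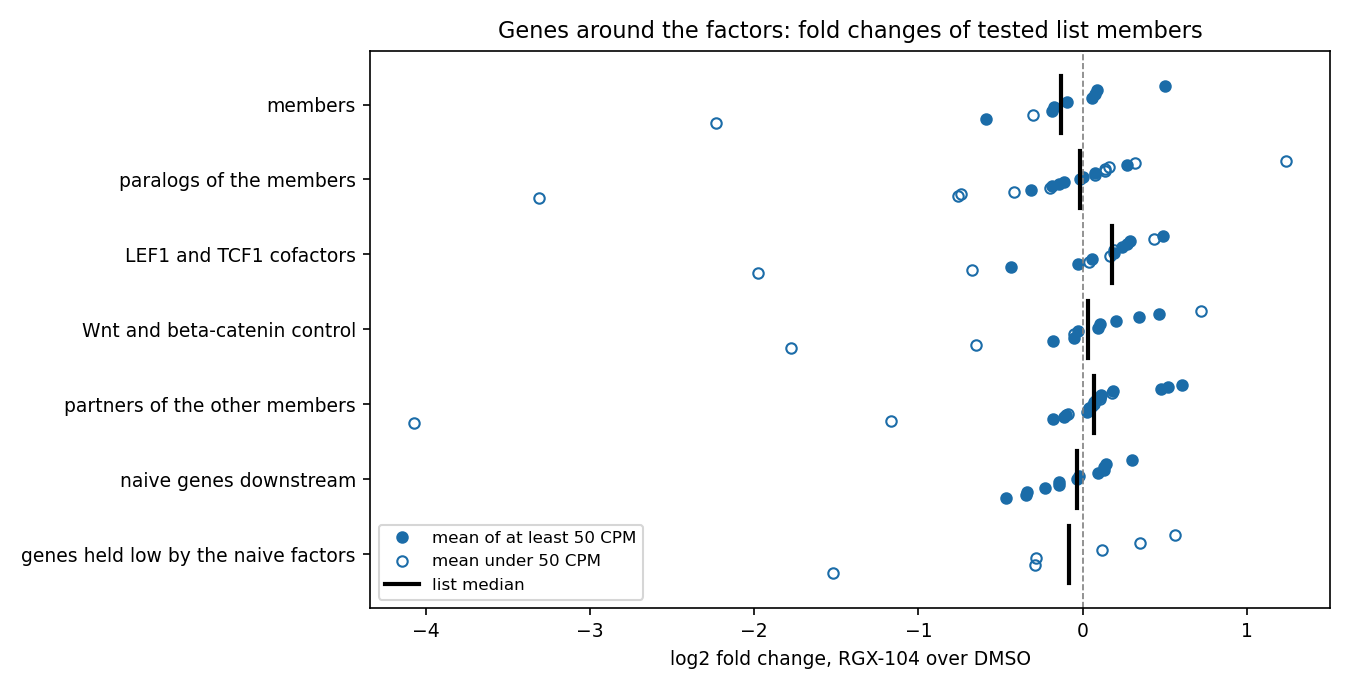
Log2 fold change of RGX-104 over DMSO (horizontal axis) for each tested gene of the 10 factors (members) and of 6 lists around them; filled points have a mean of at least 50 CPM, open points less, and vertical bars are list medians. The lowest point is Id1, at -4.07, an open point, and the median of the factors is -0.13.

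Markers of other cells that share these factors were low. CD4 and regulatory T cell markers summed to 161 to 196 CPM under DMSO and 145 to 183 CPM in RGX-104, most of it from Ikzf4, with 6 of 6 detected. Myeloid markers summed to 11.3 to 50.3 and 8.05 to 34.6 CPM with 9 of 10 detected and Fcgr1 at 0, and natural killer markers to 5.25 to 39.8 and 6.57 to 48.4 CPM with 4 of 6 detected and Ncr1 and Klra8 at 0. Ranges of the groups overlapped for each of these lists, and their part in the levels of Bach2, Ets1, Ikzf1 and Gata3, which such cells also express, was not tested.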

How the data were processed

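The authors deposited unnormalized counts, whole numbers with gene symbols as rows and a column for each library, per the file headers. Libraries came from a QuantSeq 3′ mRNA kit, per the labels' protocols. The submitters' processing notes list STAR 2.7.8a, R 4.1.0, DESeq2 1.4 and GRCm38 and assign them no step. How reads were counted (tool, annotation, strand, molecular identifiers) is not given in the sources used here.

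The test was that of edgeR 4.0.16 in R 4.3.3: quasi-likelihood test, TMM, filterByExpr with a minimum count of 10, group as the only term, and Benjamini-Hochberg adjustment over 10037 genes, called under 0.05. Standard errors are approximate, taken as the size of the log2 fold change over the root of the F statistic, and 95% intervals rest on them. CPM use TMM library sizes. Profiles used a prior count of 0.5. DESeq2 1.42.0 and limma-voom (limma 3.58.1) were alternatives. The code was tested on simulated data.

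Depth was 16196200 to 28287400 counts per library. Positions, overlaps and promoter sequences came from RefSeq on GRCm38.p6 and strands from GENCODE on GRCm38; 10 of 10 factors matched, 9 of 10 for promoters. The factors and lists were chosen with earlier results of these data known. Named genes were all 10 factors, a fixed set of list genes named whether or not they passed, up to 2 further genes per list with the smallest unadjusted p, the 5 genes nearest to Lef1 and genes overlapping a factor; Actn1, Cd8a and Id1 were named after their values were seen. Some list genes are counted in the lists but not reported here by name.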

Additional observations from a re-analysis of the deposited data

Results flagged for a closer look

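In 124 groups of 4 libraries examined (levels of the genes named here and log2 ratios of Lef1 to other factors), 6 held a library that stood apart from its group; about 1 in 20 would do so by chance. None was a level of the 10 factors or one of the ratios. Il7r stood at 352 CPM in RGX-104 replicate 8, against 294 to 296 CPM in the other RGX-104 libraries, and Cd8a at 770 CPM in RGX-104 replicate 6, against 721 to 729 CPM. For Id1, named after its values were seen, DMSO replicate 3 had 11.3 CPM and the other DMSO libraries 3.15 to 4.15 CPM, and RGX-104 replicate 5 had 1.31 CPM with the other RGX-104 libraries at 0. Prdm1 stood at 5.50 CPM and Runx3 at 0.0539 CPM in DMSO replicate 2, both at 0 in the other DMSO libraries.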

How the results depend on the processing

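Fold changes of the 10 factors and counts of called genes were recomputed under 17 alternatives and the log2 ratio of Lef1 to Tcf7 under 9; the ratios to other factors, the spreads and the nearness to Lef1 were not recomputed. No paired analysis was possible because library numbers are unique across the groups. Lef1 stayed below 0 in all 17 (-0.65 to -0.53) and was called by DESeq2 only, which raised the number of lower members from 0 to 1; the edgeR and limma-voom adjusted p of its alternatives ran from 0.0987 to 1.00, and that of DESeq2 was 2.30e-04. Genes called were 25 higher and 19 lower with DESeq2, 3 lower with limma-voom, 4 lower without a filter and 6 higher with genes detected as a covariate. Leaving out 1 library gave 7 to 11 higher and 1 to 3 lower genes (3 without DMSO replicate 4), 0 called members, 6 to 7 members below 0 and a difference in the log2 ratio of Lef1 to Tcf7 of -0.70 to -0.57. Members below 0 numbered 3 against DMSO replicate 4 alone, a lone library assumed to vary like the RGX-104 group, and 3 with the covariate; the cause was not tested. Precision limits Myb, Gata3 and Tcf12 most.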
